A study of Mus musculus with 80 samples.

Results

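The genes described here are 8 regulators of G protein signaling (RGS) and 2 of their partners, Rgs9, Rgs7, Rgs7bp, Gnb5, Rgs4, Rgs2, Rgs8, Rgs10, Rgs14 and Rgs12. They were chosen by name, and all 10 were listed among the 25160 genes of the expression table. The table holds the TPM (transcript abundance, divided by transcript length and scaled to a fixed total per cell) of 80 single neurons from the dorsomedial striatum, 40 sorted for a D1 reporter and 40 for a D2 reporter. The study behind it set up a protocol for isolating cells of the adult brain and asked which genes differ between the 2 main classes of medium spiny neurons (MSN), those of the direct pathway with dopamine D1 receptors and those of the indirect pathway with D2 receptors.

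All cells came from adult female mice that carried both BAC transgenes, Drd1a-TdTomato and Drd2-EGFP, so D1 and D2 cells share genotype, tissue and protocol. A BAC transgene follows the promoter it was built with, and the Drd2 promoter is also active in cholinergic interneurons. The region was marked by injecting the nuclear dye Hoechst with India ink, the tissue was digested with papain, and cells were sorted singly into wells. Of the 40 Drd2-EGFP cells, 2 had Chat, the enzyme that makes acetylcholine, above 100 TPM. They were taken as cholinergic interneurons and kept apart, which left 40 D1 MSN and 38 D2 MSN. The paper reports usable data from fewer cells than it attempted to sequence. The labels do not mark which cells gave none, so no cell was left out here on that ground. The D1 and D2 MSN numbered 18 and 16 on the plate FACS051_5, 21 and 19 on FACS086_4, and 1 and 3 on FACS086_9. The cells came from 3 animals in all, and the labels tie neither cells nor plates to them. The cells of a group were therefore read as 1 sample: spreads over cells are given, and no test was made between the groups.

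RGS proteins end G protein signals. They speed up the hydrolysis of GTP by the alpha subunit, so that the alpha and beta-gamma subunits rejoin and the receptor's message stops. Members of the R7 group (Rgs6, Rgs7, Rgs9 and Rgs11) are stable only when bound to Gnb5, an unusual G protein beta subunit, and are tethered to membranes by the anchor Rgs7bp. Rgs9 has a long splice form that is concentrated in the striatum, where the complex limits signals of D2 dopamine and opioid receptors. The R4 group (Rgs2, Rgs4 and Rgs8) is made of small proteins whose levels follow neuronal activity and receptor state. Rgs2 prefers Gq, whereas Rgs4 and Rgs8 act on Gi and Go, and Rgs4 also on Gq. The R12 group (Rgs10, Rgs12 and Rgs14) acts on Gi and Go, and Rgs12 and Rgs14 also bind inactive Gi through a GoLoco motif.

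The genes lie on 6 chromosomes of the mouse genome (GRCm38, positions from GENCODE M21). Chromosome 1 holds Rgs2 (chr1:143999338-144004161), Rgs8 (chr1:153653025-153700323), Rgs4 (chr1:169741477-169747642) and Rgs7 (chr1:175059087-175492500). Rgs12 is at chr5:34949445-35039644, Rgs10 at chr7:128373621-128418758, Gnb5 at chr9:75306288-75345876 and Rgs9 at chr11:109225355-109298129. Chromosome 13 holds Rgs14 (chr13:55369732-55384687) and Rgs7bp (chr13:104945904-105054930). Exons of Gnb5, Rgs8 and Rgs12 share bases with an exon of 1 other annotated gene each (Gm19531, Gm29529 and Gm43791), so reads there may have been assigned to neither or to either gene.

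RefSeq start sites (GRCm38.p6) were found for 9 of the 10 genes, with 3 starts for Rgs8 and 2 for Rgs12. The 250 bases before the start are shown for the 4 genes that the results below turn on: Rgs9, which was low in both cholinergic interneurons, Rgs4, which varied most closely with the number of genes found in a cell, Rgs2, which varied with the activity gene Arc, and Rgs8 (the first of its starts), which differed between D1 and D2 MSN. Capitals mark the core of the cAMP response element, CRE (TGACG, or CGTCA on the other strand) and the TATA box (TATAAA, or TTTATA). Only these exact letters were searched, on both strands and at any place in the window.
Rgs9 (chr11:109298182-109298431, minus strand): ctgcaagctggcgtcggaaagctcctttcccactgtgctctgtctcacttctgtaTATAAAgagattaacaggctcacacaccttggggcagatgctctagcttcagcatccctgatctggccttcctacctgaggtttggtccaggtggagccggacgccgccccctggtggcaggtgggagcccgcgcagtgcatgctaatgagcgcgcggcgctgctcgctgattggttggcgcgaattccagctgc
Rgs4 (chr1:169747643-169747892, minus strand): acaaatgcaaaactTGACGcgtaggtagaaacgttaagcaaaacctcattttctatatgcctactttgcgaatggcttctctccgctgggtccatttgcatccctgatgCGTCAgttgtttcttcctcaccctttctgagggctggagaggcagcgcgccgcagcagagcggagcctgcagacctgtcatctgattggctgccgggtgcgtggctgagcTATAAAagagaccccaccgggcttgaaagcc
Rgs2 (chr1:144004150-144004399, minus strand): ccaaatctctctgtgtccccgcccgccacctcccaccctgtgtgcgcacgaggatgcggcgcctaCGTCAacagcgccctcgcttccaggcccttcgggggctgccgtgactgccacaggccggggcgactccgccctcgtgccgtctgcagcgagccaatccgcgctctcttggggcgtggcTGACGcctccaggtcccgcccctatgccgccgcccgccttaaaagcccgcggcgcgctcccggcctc
Rgs8 (chr1:153652787-153653036, plus strand): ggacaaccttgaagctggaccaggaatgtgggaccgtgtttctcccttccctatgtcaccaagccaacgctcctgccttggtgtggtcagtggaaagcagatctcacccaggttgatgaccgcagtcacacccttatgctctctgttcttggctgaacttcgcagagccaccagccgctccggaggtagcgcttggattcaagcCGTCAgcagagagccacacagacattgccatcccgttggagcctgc
Rgs4 held a TATA box 31 bases before its start and 2 CRE cores, at 236 and 141 bases. Rgs2 had 2 CRE cores as well, at 185 and 67 bases, and no match to the TATA box letters. The first start of Rgs8 had 1 CRE core, at 46 bases, and Rgs9 had the TATA box letters farther out, at 195 bases. The CRE core was in 5 of the 12 windows of these genes (those of Rgs7bp, Rgs4, Rgs2, the first of Rgs8 and the second of Rgs12) and in 17.8% of the 32851 windows of all genes. The TATA box letters were in 3 of the 12 (Rgs9, Gnb5 and Rgs4) and in 12.4% of all. Such letters are matches in a window and not sites known to be bound, and the gene-level values do not tell which start a cell used.

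D1 MSN had 648 to 8657 genes above 1 TPM (median 5722) and D2 MSN 1215 to 7942 (median 4928), and the listed TPM summed to between 506588 and 958040 per cell. The number of reads per cell is not known from TPM. The mean receptor levels followed the labels, with Drd1 at 195 ± 124 TPM in D1 MSN and 0.46 ± 0.76 in D2 MSN (mean ± SD over cells), and Drd2 at 0.171 ± 0.920 and 50.0 ± 89.6. Single cells were less uniform, and Drd2 was above 1 TPM in 26 of the 38 D2 MSN. The D2 marker Penk had a median of 11.4 TPM in D1 MSN but reached 3676. The D1 marker Tac1 was above 1 TPM in 22 D2 MSN (median 1.37 over the 38) and reached 1218. The MSN gene Ppp1r1b was above 1 TPM in all 78 MSN, but also in both cholinergic interneurons (33.0 and 3.63 TPM). Bcl11b, another MSN gene, was found in 38 D1 and 33 D2 MSN and in 0 of the 2 interneurons. A pair of D1 cells stood apart: D04 of FACS051_5, in which the astrocyte gene Aldoc reached 10427 TPM and Drd1 only 2.03, and B02 of FACS086_4, which had the fewest genes of all cells.

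The levels of the 10 genes spanned a wide range over the 78 MSN. Rgs2 had the highest mean, 431 ± 378 TPM (SD over cells), followed by Rgs9 at 379 ± 277, Rgs4 at 303 ± 326 and Gnb5 at 226 ± 313. A middle set held Rgs10 at 94.7 ± 195, Rgs7bp at 74.6 ± 65.0, Rgs8 at 51.8 ± 87.5, Rgs7 at 47.2 ± 79.1 and Rgs14 at 43.0 ± 80.6. Rgs12 was lowest, at 12.2 ± 48.4. The mean of Rgs2 was above that of 99.3% of all listed genes and that of Rgs12 above 72.5%.

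Each neighbouring pair in this order differed by less than the SD of the higher gene. Rgs2 was above Rgs9 in 38 of the 78 cells and below it in 40, and Rgs9 was above Rgs4 in 50. Rgs10 shows how far a mean can stand from the cells: it ranked above Rgs7bp by its mean, yet it was below Rgs7bp in 56 of the 78 cells. By the median, Rgs10 fell from the fifth place to the eighth, behind Rgs7bp, Rgs8 and Rgs7.

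**Figure D1:**
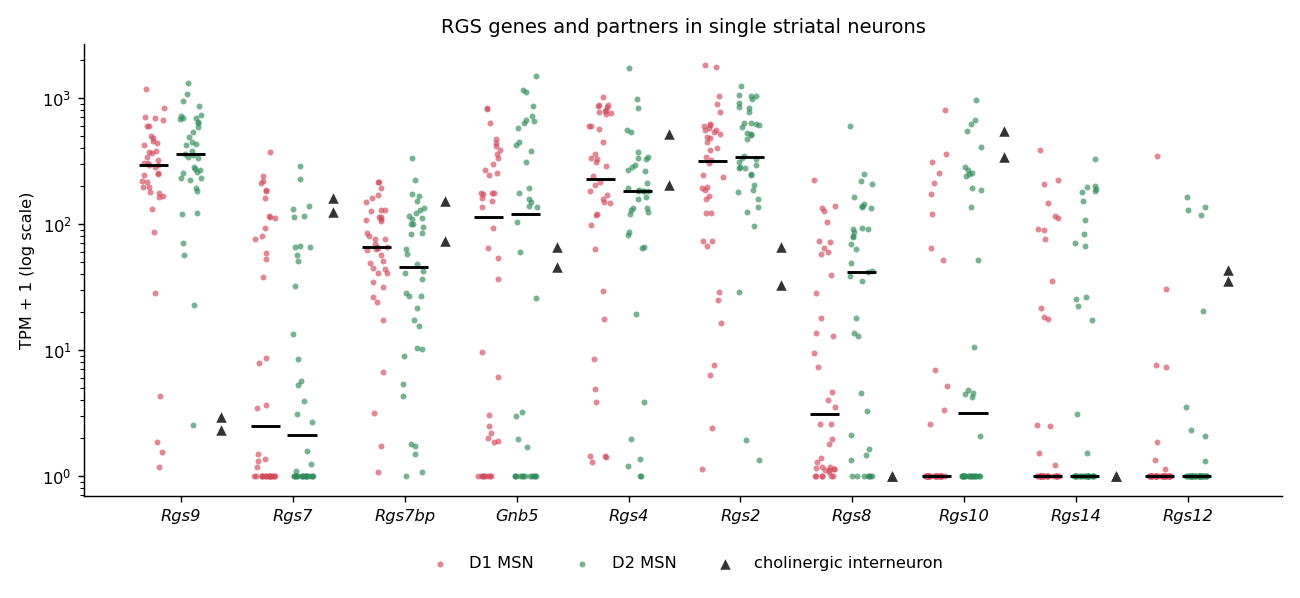
TPM plus 1 (log axis) of the 10 genes in single cells: 40 D1 MSN (red), 38 D2 MSN (green) and 2 cholinergic interneurons (black triangles). Bars are group medians. Rgs9, Rgs2 and Rgs4 are high in most MSN, while Rgs10, Rgs14 and Rgs12 are at 0 in many. The triangles lie at the bottom for Rgs9 and at 0 for Rgs8 and Rgs14.

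Rgs2, Rgs4 and Rgs9 made up most of the TPM of the RGS genes. The paper describes a bias of its reads toward the 3' end of transcripts. Its part in levels compared between genes was not tested. Among the 18 listed genes named Rgs with a number, these 3 held 72.7% of the summed mean TPM in D1 MSN and 68.7% in D2 MSN. Per cell, their share had a median of 77.5% in D1 MSN and 71.2% in D2 MSN, and it passed 50% in 33 of 40 and 33 of 38 cells. The most abundant RGS gene of a cell was Rgs9 in 25 MSN, Rgs2 in 24 and Rgs4 in 17, and another gene in the other 12 (Rgs10 in 5, Rgs20 in 3, Rgs17 in 2, and Rgs11 and Rgs14 in 1 each). Which RGS gene led thus varied from cell to cell within each class.

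The genes also differed in how often they were found. A cell was counted when the gene was above 1 TPM, and 7 of the 10 genes passed that limit in at least 50% of the MSN, beside 41.4% of the 7642 genes whose mean reached 10 TPM. Rgs9 and Rgs2 were each found in 75 of 78 MSN (96.2%, exact Clopper-Pearson 95% interval 89.2% to 99.2%, which covers counting error only). Rgs7bp followed with 71, Rgs4 with 69, Gnb5 with 53, Rgs8 with 50 and Rgs7 with 39. The 3 R12 genes were found in fewer cells: Rgs10 in 33, Rgs14 in 31 and Rgs12 in 12. A D1 MSN had a median of 6 of the 10 genes and a D2 MSN a median of 7.

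**Figure D2:**
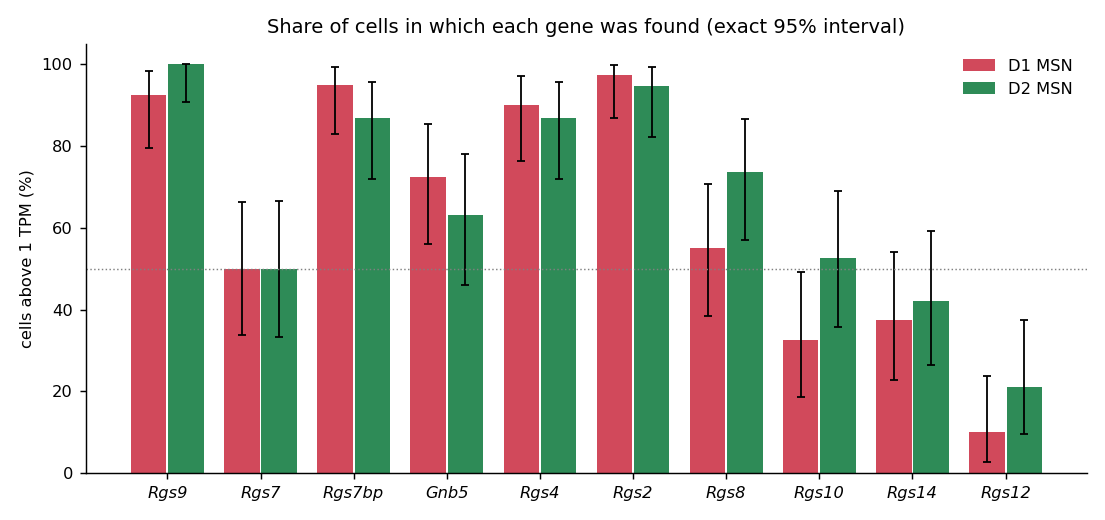
Share of cells above 1 TPM (in %) for each gene in the 40 D1 MSN (red) and 38 D2 MSN (green), with exact Clopper-Pearson 95% intervals. The dotted line marks 50%. The intervals of D1 and D2 MSN overlap for each of the 10 genes. They cover counting error only and pool the plates, so their overlap is not a test of the classes.

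Between D1 and D2 MSN, 2 of the 10 genes passed a log2 fold of 1 (taken on mean TPM plus 1), Rgs8 and Rgs10, and both were higher in D2 MSN. Of the 7642 genes whose mean reached 10 TPM, 9.58% were that much higher in D2 MSN, so that 2 of 10 is not far from this background. None of the 10 genes was higher in D1 MSN by a log2 fold of 1, where the background was 12.4%. Rgs8 and Rgs10 were also higher in D2 MSN on each large plate, which 6.84% of the 7642 genes combined with such a fold. The other 8 genes lay between -0.64 (Gnb5) and 0.66 (Rgs7).

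**Figure D3:**
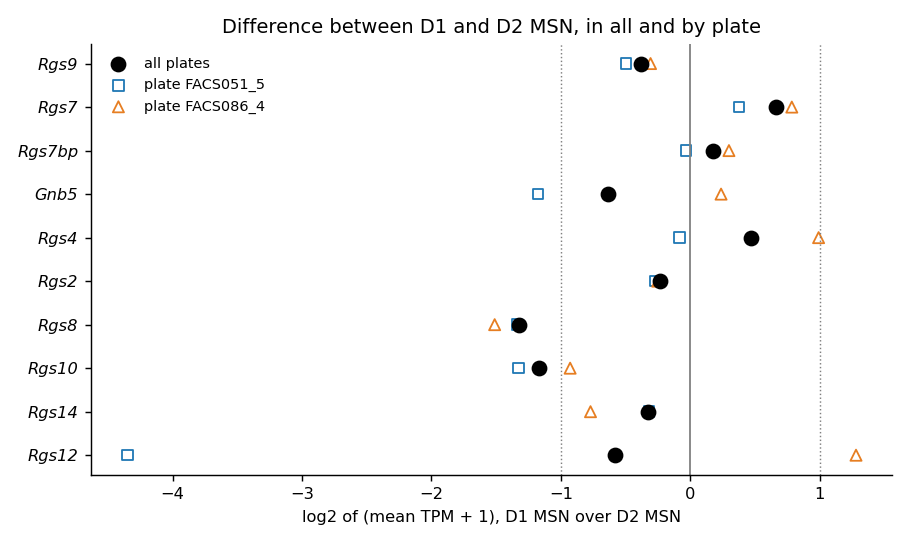
Log2 of mean TPM plus 1 in D1 MSN over D2 MSN for each gene, over all cells (black) and within the plates FACS051_5 (blue squares) and FACS086_4 (orange triangles). Points left of 0 are higher in D2 MSN, and dotted lines mark a log2 fold of 1. Rgs8 and Rgs10 lie at or near -1 or below in all 3, while Gnb5, Rgs4, Rgs7bp and Rgs12 fall on opposite sides of 0 on the 2 plates.

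Rgs9, the striatal member of the R7 group, was found in nearly every MSN. In D1 MSN its level ran from 0.185 to 1173 TPM with a median of 293, and in D2 MSN from 1.51 to 1309 with a median of 354. All 38 D2 MSN were above 1 TPM, and 37 of 40 D1 MSN. The ranges overlap almost wholly, and the 3 D1 cells at the bottom were D04 of FACS051_5 (0.867 TPM), B02 of FACS086_4 (0.541) and C06 of FACS051_5 (0.185). The first and the second of these are the cells that stood apart. The means were 331 ± 247 and 430.5 ± 300.3 TPM, a log2 fold of -0.38, with -0.50 on FACS051_5 and -0.31 on FACS086_4, and it was -0.30 without the pair of cells that stood apart.

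Rgs7, the other abundant R7 gene, was found in 50.0% of the cells of either class (20 of 40 D1 and 19 of 38 D2 MSN). Its levels ran from 0 to 368 TPM in D1 MSN (median 1.48) and from 0 to 286 in D2 MSN (median 1.12). The D1 mean was higher, 57.7 ± 88.9 against 36.1 ± 66.6 TPM, a log2 fold of 0.66 (0.38 on FACS051_5 and 0.78 on FACS086_4). On FACS051_5 it is -0.14 without the D1 cell at 368 TPM (B07). The higher D1 mean came from the cells that had the gene: among cells above 1 TPM the median was 101 TPM in D1 and 55.4 in D2 MSN. Every cell with Rgs7 also had Rgs9, which was found in 75 of all 78 MSN.

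Rgs7bp, the membrane anchor of the R7 group, was found in 38 of 40 D1 MSN and 33 of 38 D2 MSN. It ran from 0.0710 to 215 TPM in D1 MSN (median 64.4) and from 0 to 333 in D2 MSN (median 44.3). The means, 79.1 ± 56.97 and 69.9 ± 72.9 TPM, differed by a log2 fold of 0.18, which was -0.03 on FACS051_5 and 0.30 on FACS086_4. The D1 and D2 ranges overlapped almost throughout.

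Gnb5, the obligate beta subunit of the R7 group, varied widely between cells. It was at 0 in 20 of the 78 MSN and above 100 TPM in 40, with 18 in between. The cells above 1 TPM had a median of 191 TPM. In D1 MSN it ran from 0 to 823 TPM (median 113) and in D2 MSN from 0 to 1475 (median 119). The means were 178 ± 221 and 276 ± 383 TPM, a log2 fold of -0.64. The plates went opposite ways: D1 and D2 means were 225 and 510 TPM on FACS051_5 (log2 fold -1.18), and 144 and 122 TPM on FACS086_4 (0.24).

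The parts of the R7 complex were also counted jointly. Among the 40 D1 MSN, 27 had Rgs9, Gnb5 and Rgs7bp all above 1 TPM (67.5%, exact 95% interval 50.9% to 81.4%). Among the 38 D2 MSN it was 22 (57.9%, with an interval of 40.8% to 73.7%). These counts lie near those of Gnb5 alone (29 D1 and 24 D2 MSN), the least often found of the 3 genes. Whether the joint counts exceed what the separate shares would give was not tested. When a part was missing it was mostly Gnb5: 21 MSN had Rgs7bp without Gnb5 and 3 had Gnb5 without Rgs7bp. The rank correlations between their levels were weak. Over the 78 MSN, which share plates and vary in the number of genes found, the Spearman rho of log2(TPM + 1) was 0.25 for Rgs9 and Rgs7bp (Pearson r 0.42), and 0.16 for Rgs9 and Gnb5 (r 0.10).

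**Figure D4:**
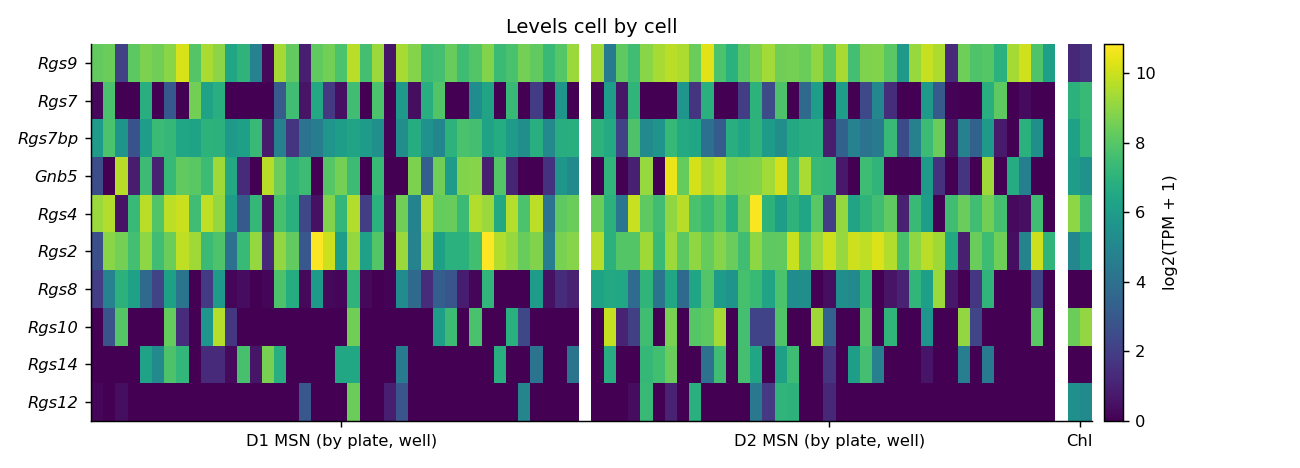
Log2(TPM + 1) of the 10 genes (rows) in each cell (columns), ordered by plate and well within D1 MSN, D2 MSN and the 2 cholinergic interneurons (ChI), with no clustering. Rgs9, Rgs7bp and Rgs2 are found in nearly every MSN, whereas Gnb5, Rgs10 and Rgs14 are at 0 in 20, 45 and 44 MSN and above 100 TPM in 40, 20 and 14.

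Other R7 genes and anchors were lower. Rgs11 was found in 11 D1 and 16 D2 MSN, at means of 20.3 ± 67.7 and 43.4 ± 70.9 TPM, a log2 fold of -1.06 (-0.81 and -1.37 on the large plates). It alone passed a log2 fold of 1 among the 3 other RGS genes whose mean reached 10 TPM (Rgs11, Rgs17 and Rgs20). Rgs6 had 5.31 and 2.86 TPM and was found in 4 cells of each class. Gpr158, a receptor-like anchor of Rgs7, had 29.1 ± 39.1 and 25.1 ± 28.4 TPM, while Rgs9bp, the anchor of the retina, was above 1 TPM in 1 of 78 MSN. Gnb2, a conventional beta subunit, was more abundant than Gnb5, at 496 ± 369.6 and 452 ± 470.1 TPM.

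In the R4 group, Rgs4 was found in 36 of 40 D1 MSN and 33 of 38 D2 MSN. It ran from 0.283 to 1005 TPM in D1 MSN (median 228) and from 0 to 1711 in D2 MSN (median 179.9), and the classes overlapped. The means were 351 ± 325 and 254 ± 324 TPM, a log2 fold of 0.47. That difference belonged to 1 plate: on FACS086_4 the means were 336 and 169 TPM (0.99), and on FACS051_5 they were 369 and 391 (-0.08).

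Rgs4 was the gene most closely tied to how much of the transcriptome a cell yielded. Its rho with the number of genes above 1 TPM was 0.63 over the 78 MSN (r 0.68), 0.77 within D1 and 0.48 within D2 MSN. For the other 9 genes rho ran from 0.14 (Rgs14) to 0.36 (Rgs7). D1 MSN found more genes than D2 MSN on FACS086_4 (medians 5730 and 4617), where Rgs4 was higher in D1, and fewer on FACS051_5 (5109 and 5923), where it was not. The part of this in the D1 and D2 levels of Rgs4 was not tested.

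Rgs2, the Gq-directed member, had the highest mean in both classes. It ran from 0.138 to 1833 TPM in D1 MSN (median 311) and from 0.337 to 1247 in D2 MSN (median 339), and was above 1 TPM in 39 of 40 and 36 of 38 cells. The means, 397 ± 416 and 468 ± 335 TPM, gave a log2 fold of -0.24, and the plates were alike (-0.27 and -0.25). Both classes had more on FACS086_4 (467 and 557 TPM) than on FACS051_5 (311 and 375).

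Rgs2 varied together with Arc, an activity-induced gene of dendrites. Of the 3447 other genes found in at least 50% of the MSN, Arc was the most like Rgs2, with a rho of 0.58 (r 0.48) over 78 cells. The nearest genes of the other members had rho values from 0.48 (Rgs7) to 0.67 (Rgs4). Within classes and large plates rho was 0.33 and 0.62 for D1 MSN and 0.82 and 0.56 for D2 MSN (FACS051_5 and FACS086_4). In the same cells from which Arc was picked, the 39 MSN with Arc above 1 TPM had a median of 527 TPM of Rgs2, and the 39 others a median of 193. The number of genes found moved with both, at a rho of 0.26 for Rgs2 and 0.39 for Arc, and its part in their likeness was not tested.

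The other early response genes followed Rgs2 less closely. Of the 12 listed, Ier2 was at 0 in all MSN, and the rho of the other 10 beside Arc ran from 0.14 (Btg2) to 0.43 (Npas4). Junb had 0.38, Nr4a1 0.35, Egr1 0.31 and Fos 0.26. With Rgs4 the highest were Egr1 at 0.44 and Dusp1 at 0.42, and Arc had 0.32. None of these genes differed between D1 and D2 MSN by a log2 fold of 1. Of the 7642 genes whose mean reached 10 TPM, 12.4% were that much higher in D1 MSN and 9.58% in D2 MSN.

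**Figure D5:**
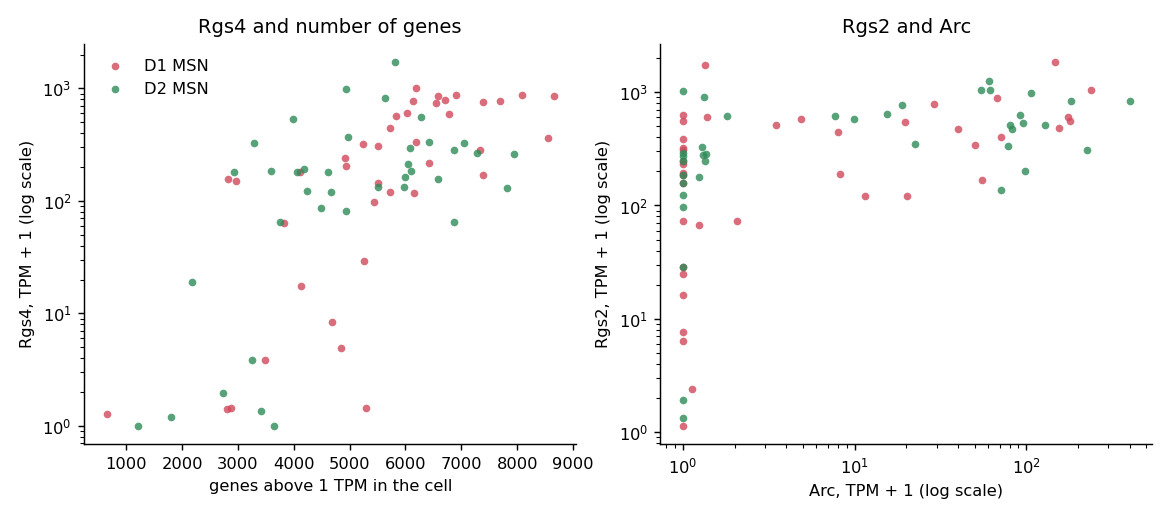
Left, Rgs4 (TPM + 1, log axis) against the number of genes above 1 TPM in the cell. Right, Rgs2 against Arc (both TPM + 1, log axes). Points are D1 MSN (red) and D2 MSN (green). Spearman rho over the 78 cells was 0.63 on the left and 0.58 on the right. The 39 cells with Arc above 1 TPM have a median of 527 TPM of Rgs2, and the 39 others one of 193.

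Rgs8 had the largest log2 fold between the classes of the 10 genes, and it was higher in D2 MSN. It ran from 0 to 222 TPM in D1 MSN with a median of 2.07, and from 0 to 592 in D2 MSN with a median of 40.8. On FACS051_5 all 16 D2 MSN had it, between 11.97 and 245 TPM, beside 12 of 18 D1 MSN. On FACS086_4 it was found in 11 of 19 D2 and 10 of 21 D1 MSN, with medians of 2.28 and 0.796 TPM. The means were 29.4 ± 50.9 and 75.3 ± 109.9 TPM, a 2.56-fold higher level in D2 MSN (log2 fold -1.33). The plates gave -1.34 and -1.51, and the latter is -0.66 without the D2 cell at 592 TPM (C05 of FACS086_4). Over all plates, leaving out any 1 cell gave -1.58 to -1.03. Without the pair of cells that stood apart it was -1.25. The classes still overlapped, and the shares above 1 TPM (55.0%, 38.5% to 70.7%, and 73.7%, 56.9% to 86.6%) have overlapping intervals, which is not a test.

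Rgs10, a small RGS protein best known from microglia, was above 1 TPM in 33 of 78 MSN, of which 20 exceeded 100 TPM and 10 had 10 TPM or less. It was at 0 in 27 of 40 D1 MSN and 18 of 38 D2 MSN, and the cells above 1 TPM had medians of 118 and 216 TPM. The highest D1 cell had 793 TPM and the highest D2 cell 952. The means were 58.4 ± 149.5 and 133 ± 229 TPM, a log2 fold of -1.17, with -1.33 on FACS051_5 and -0.93 on FACS086_4. The latter is -0.31 without the D2 cell A11, at 622 TPM. Without the D2 cell at 952 TPM (A10 of FACS051_5) it was -0.91, so that 1 cell carries it past -1, and without the pair of D1 cells that stood apart it was -1.10. The gene was found in 32.5% of the D1 cells (exact 95% interval 18.6% to 49.1%) and 52.6% of the D2 cells (35.8% to 69.0%).

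Microglia markers were looked at beside Rgs10. Of 8 on the list, Cx3cr1, Csf1r and Aif1 were listed, and C1qa, C1qb, C1qc, P2ry12 and Tmem119 were not. Their summed level ran from 0 to 271 TPM in D1 MSN (median 0.389) and from 0 to 159.7 in D2 MSN (median 0). Of the 33 MSN with Rgs10 above 1 TPM, 23 had these markers at 1 TPM or less in sum, and 16 had all 3 at 0. Among all 78 MSN the sum was above 1 TPM in 23 cells, a share like that in the cells with Rgs10. Where the Rgs10 transcripts came from was not tested. The rho of Rgs10 with their sum was 0.01.

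Rgs14 and Rgs12, the GoLoco members, were sparse. Rgs14 was found in 15 D1 and 16 D2 MSN, ran from 0 to 386 and from 0 to 326 TPM, and had a median of 0 in both classes. Its means were 38.1 ± 80.2 and 48.2 ± 81.8 TPM (log2 fold -0.33). Levels were higher on FACS051_5, where D1 and D2 means were 65.7 and 82.3 TPM, than on FACS086_4, with 15.4 and 27.03. Rgs12 was found in 4 D1 and 8 D2 MSN and had means of 9.61 ± 53.9 and 14.9 ± 42.4 TPM. A single D1 cell (A07 of FACS086_4) held 341 TPM of it, and without it the log2 fold of -0.59 becomes -2.91. The plates went opposite ways, with -4.35 on FACS051_5 and 1.28 on FACS086_4, and the latter is -1.47 without that cell.

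Of the 9 listed alpha subunits, 6 were above 1 TPM in most MSN, and Gnas (28 of 78), Gnai1 (32) and Gnai3 (12) were not. Gnao1, the Go subunit, had 159 ± 153 TPM in D1 and 224 ± 236 in D2 MSN, and Gnal, the subunit that couples D1 and adenosine receptors to adenylyl cyclase in the striatum, had 129.7 ± 113 and 144 ± 89.7. Of 7 listed Gi, Go, Gz and Gq subunits, Gnai1 (32.3 ± 58.8 and 14.4 ± 30.97 TPM) passed a log2 fold of 1 towards D1 MSN at 1.11 and Gnai3 (2.20 ± 6.67 and 7.48 ± 23.6 TPM) towards D2 MSN at -1.41, and the other 5 did not. Gnas, the general stimulatory subunit, was higher in D2 MSN, at 12.7 ± 58.3 and 98.6 ± 163 TPM (log2 fold -2.86, with -2.61 and -4.70 on the large plates). Gnaz was above 1 TPM in all 78 MSN, at 29.8 ± 33.7 and 23.95 ± 27.5 TPM.

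Of the 10 other RGS genes listed, Rgs17 and Rgs20, both of the RZ group that acts on Gz, were the most abundant. Rgs17 had 90.0 ± 114 and 74.0 ± 86.2 TPM, and Rgs20 85.2 ± 108 and 87.7 ± 134, found in 59 and 68 of the 78 MSN. Of all 10, 1 passed a log2 fold of 1 towards D1 MSN (Rgs3, at 1.85 ± 11.2 and 0.0383 TPM, with 70.7 TPM in D04 of FACS051_5, the cell with astrocyte genes), 1 towards D2 MSN (Rgs11) and 7 neither. Rgs16, with no fold, was at 0 in all D1 MSN and above 1 TPM in 3 D2 MSN. Among 13 genes with a related RGS domain, Adrbk1, a receptor kinase, was found in 11 D1 and 4 D2 MSN, at 14.8 ± 50.95 and 1.04 ± 3.53 TPM (log2 fold 2.95). Axin2 passed a log2 fold of 1 in the same direction, Arhgef11 and Arhgef1 in the other, and 9 did not. Axin2 was found in 3 cells of each class. None of the 4 genes on this list whose mean reached 10 TPM passed a log2 fold of 1. Arhgef1 was found in 5 MSN only, and on FACS086_4 it was higher in D1 MSN (1.73). Of the 4 other beta subunits, Gnb4 was higher in D1 MSN, at 29.7 ± 73.5 and 9.87 ± 34.9 TPM (log2 fold 1.497, with 2.43 and 2.45 on the large plates). Of 7 GoLoco and Ric8 genes, none whose mean reached 10 TPM passed a log2 fold of 1, and Rap1gap was the most abundant at 119 ± 165 and 107 ± 122 TPM. Gpsm2, found in 7 MSN at a mean of 3.10 TPM, had a log2 fold of -1.02.

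The 2 cholinergic interneurons, wells A08 and B02 of FACS051_5, were set beside the 34 MSN of their plate. Rgs9 stood at 1.32 and 1.95 TPM, below 32 of the 34 MSN, whose mean was 398 TPM. Rgs8 and Rgs14 were at 0 in both cells, as they were in 2 and 14 of the 34 MSN. Rgs2 had 31.9 and 64.3 TPM beside a mean of 341, and 4 of the 34 MSN lay below both cells. Gnb5 had 64.2 and 44.6 beside 359, and 10 of the 34 lay below both. Both cells had more genes above 1 TPM, 10912 and 10251, than any MSN.

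Other members were as high in these interneurons as in MSN or higher. Rgs10 had 341 and 543 TPM, above 30 of the 34 MSN, whose mean was 135. Rgs7 had 123 and 160.2 TPM beside a mean of 53.1, and Rgs12 42.0 and 34.03 beside 13.1. Rgs7bp had 72.3 and 149.7 TPM and Rgs4 514 and 202, within the range of the MSN. Of the 10 genes, 5 were lower than the MSN of the plate by a log2 fold of 1 (Rgs9, Gnb5, Rgs2, Rgs8 and Rgs14), beside 27.5% of the 7642 genes, and 3 were higher (Rgs7, Rgs10 and Rgs12), beside 20.7%. Rgs6, another R7 gene, had 60.0 and 107 TPM there and a mean of 4.12 TPM over all MSN. With 2 cells of 1 plate these are values of those cells.

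The genes most like the other members over the 78 MSN differed from member to member. Rgs9 was nearest to Ptprn and Stk25 (rho 0.49 each) and Pde10a, the MSN phosphodiesterase (0.48). Rgs4 was nearest to Ppp3cb, a calcineurin catalytic subunit (0.67), Kcnab1 (0.62) and Coch (0.62), which had rho values of 0.45 to 0.58 with the number of genes themselves. Rgs8 was nearest to Rnf187 (0.66), which did not differ between the classes as Rgs8 did (log2 fold -0.16). Rgs7bp was nearest to Prkce (0.53) and Bcl11b (0.51), Gnb5 to Hspa8 (0.59) and Eif1 (0.58), and Rgs7 to Rapgef2 (0.48). Among the 10 genes themselves the highest rho were 0.41 for Rgs4 and Rgs7bp, 0.37 for Rgs4 and Rgs7 and 0.37 for Rgs9 and Rgs8.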

How the data were processed

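Each sample was the RNA of 1 sorted cell, amplified with the SMARTer Ultra Low kit. The authors aligned reads with STAR 2.5.0 to mm10/GRCm38 and counted them per gene with featureCounts 1.5.1, and they deposited TPM per gene and cell; how the TPM were made is not given in the sources used here. DESeq2 1.14.1 was used by the authors for their own comparisons and not here. TPM keep no depth, so a value of 0 sets no limit, and shares carry exact Clopper-Pearson 95% intervals for counting error only.

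Values were analysed with Python 3.11.15, pandas 2.3.3 and scipy 1.17.1. The cells sorted for Drd2-EGFP in which Chat passed 100 TPM were kept out of the D2 MSN. The log2 fold is that of mean TPM plus 1 in D1 over D2 MSN, a cell counts for a gene above 1 TPM, and the background is the 7642 genes whose mean over all MSN reached 10 TPM. Counts of list genes past a log2 fold of 1 are to be read beside the background shares of 12.4% (towards D1 MSN) and 9.58% (towards D2 MSN). List genes with a mean under 10 TPM lie outside that background. The fold understates the change of low genes. Because no label names an animal, cells were not treated as replicates of a condition and no p-value was computed. Plates are sorting plates, and the labels do not tie them to animals. Correlations over cells are descriptions.

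The 10 genes and the lists (other RGS genes, anchors, RGS domain genes, G protein subunits, GoLoco and Ric8 genes, receptors, early response genes and cell type markers) were chosen with earlier results of these data known. All 10 genes are named. List genes whose mean reached 10 TPM or whose log2 fold passed 1, and the 3 nearest genes by rho, could be named, and some were. Other list genes are named because their values were seen. Gene positions come from GENCODE M21 and promoter windows from RefSeq, both GRCm38. Alternatives changed the pseudocount, mean, scaling, limit and cells.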

Additional observations from a re-analysis of the deposited data

How the results depend on the processing

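The number of genes past a log2 fold of 1, which was 2 (Rgs8 and Rgs10), became 5 when TPM were divided by each cell's upper quartile (Rgs9, Gnb5 and Rgs2 were added), 4 without plate FACS051_5 (Rgs4 and Rgs12 were added) and 1 when only genes found in at least 50% of the MSN were taken (Rgs8). The upper quartile was 0.353 TPM in B02 of FACS086_4 and 0.714 in A12 of FACS086_9 beside a median of 135, and that scaling moved the median log2 fold of expressed genes from 0.01 to -0.11. With the cells under 2000 genes left out as well, an alternative chosen after seeing the data, the count was 2. Leaving out those cells without that scaling kept 39 D1 and 36 D2 MSN, and the count was also 2. Over these alternatives the log2 fold of Rgs8 lay between -1.66 and -1.11 and that of Rgs10 between -1.64 and -1.002, while Gnb5 ran from -1.05 to 0.38 and Rgs12 from -4.13 to 1.40. Leaving out each cell in turn gave -1.58 to -1.03 for Rgs8 and -1.72 to -0.91 for Rgs10. In the order of mean levels, 6 of 10 genes kept their place by the median, 6 without plate FACS051_5 and 4 without plate FACS086_4. The number of genes found in at least 50% of the MSN stayed between 6 and 8. Leaving out D04 of FACS051_5 and B02 of FACS086_4, also chosen after seeing the data, changed neither count nor the order. No paired analysis was possible because the replicate numbers only follow the order of the cells and no test was made.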

Other observations

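Receptors were measured in the same cells. Adora2a, the adenosine receptor of the indirect pathway, had 91.9 ± 96.8 TPM in D2 MSN (SD over 38 cells) and 0.108 in D1 MSN. Oprm1, the mu opioid receptor, was found in 3 D1 and 8 D2 MSN, at means of 1.62 ± 6.37 and 8.87 ± 23.1 TPM. Grm5, a Gq-coupled glutamate receptor, had close means, at 146 ± 109.6 and 166 ± 164 TPM, and so had Cnr1, at 44.5 ± 67.6 and 45.7 ± 82.5. Chrm1 had 22.0 ± 28.2 and 16.3 ± 30.95 TPM. Chrm4, which the paper places among genes specific to D1 MSN, was above 1 TPM in 1 D1 MSN and at 0 in all D2 MSN. The paper reports that most of its reads fell in an end of the gene that the Ensembl annotation lacks. Which annotation these TPM used is not given.

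The cell D04 of FACS051_5, labelled D1, had Slc1a3 at 1334 TPM and Gja1 at 989 TPM besides Aldoc, and of the 10 genes it had Gnb5 at 173 TPM, Rgs7bp at 16.4, Rgs12 at 6.59, Rgs2 at 6.58 and Rgs4 at 3.91, with the others under 1 TPM. The cell C06 of FACS051_5, with Rgs9 at 0.185 TPM, held the highest Rgs14 of all MSN, 386 TPM, and Gnb5 at 809 TPM. Across the 38 D2 MSN, the rho between EGFP fluorescence and a gene lay between -0.29 (Rgs14) and 0.04 (Rgs2), and across the 40 D1 MSN that with TdTomato fluorescence between -0.24 (Rgs14) and 0.24 (Rgs9).

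Markers of other cells differed in how far they were found in MSN. The summed level of 5 listed astrocyte markers reached 13081 TPM in D04 of FACS051_5 and at most 45.5 TPM in every other MSN. That of 5 listed oligodendrocyte markers had medians of 2.86 and 2.96 TPM in D1 and D2 MSN, that of 4 endothelial and pericyte markers 31.97 and 30.96 (nearly all Pecam1, which was above 1 TPM in all 78 MSN), that of 5 GABAergic interneuron markers 0.0355 and 0, and that of 4 cortical excitatory markers 0.739 and 0.223. Single cells stood far above these medians. Oligodendrocyte markers summed to at most 359 TPM in D1 MSN (188 in the next cell) and 84.8 in D2 MSN. GABAergic interneuron markers reached 325 and 97.2 TPM, and cortical excitatory markers 147 and 56.9. The 5 cholinergic markers summed to at most 15.7 TPM in any MSN.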
